A study of Rattus norvegicus with 4 samples.

Results

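The genes described here encode the vacuolar ATPase (V-ATPase), the cathepsins and the lysosome-associated membrane proteins (LAMP) of the rat. They were picked by their symbols, which begin with Atp6v or Atp6ap, or consist of Cts and 1 letter or Lamp and 1 digit, outside the mitochondrial chromosome. The rule found 47 genes among the 34773 of the deposited table, of which 26 are V-ATPase genes, 17 are cathepsin genes and 4 are Lamp genes. The rule reads symbols only. Poly(A) RNA was sequenced from 1 library labelled WT and from 3 libraries labelled *Thop1*-KO, 1 for each of 3 subclones, all of rat embryonic stem cells (ESCs). The study's methods give the line as DA-5-3, which carries a GFP reporter at *Rex1* in all 4 libraries, and the subclones as picked colonies of that line after cutting of *Thop1* with Cas9. The study describes this line as diploid, whereas the series' design text calls the cells haploid ESCs. The cells were grown on feeder cells in 2i/LIF medium, and neither the strain nor the age of the donor embryo is given in the labels.

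The V-ATPase is a rotary proton pump. Its V1 sector hydrolyses ATP in the cytosol, and its V0 sector carries protons across the membrane of lysosomes, endosomes and other compartments. Cathepsins are proteases that are made as inactive precursors and mature in the acid that the pump provides, and LAMP proteins coat the lysosomal membrane from the inside. In many cell types the transcription factors TFEB, TFE3 and MITF bind E-box sequences near the start of lysosomal genes. The comparison of *Thop1*-KO with WT asks how the transcripts of this compartment stand in cells without an intact *Thop1*, which encodes the cytosolic peptidase thimet oligopeptidase.

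Levels are given as CPM, which are counts brought to a common library size by edgeR's TMM method, for 1 gene across libraries, and as the deposited FPKM, which divides by exon length, wherever genes are compared with each other. The counts on genes summed to between 15405499 and 17936544 per library. *Thop1* was at 370 CPM in WT and at 110, 92.5 and 149 CPM in subclones 1, 2 and 3 (log2 fold change -1.66, standard error (SE) 0.29, adjusted p = 0.0187 in the quasi-likelihood test of edgeR, corrected by the Benjamini-Hochberg method), so every library labelled *Thop1*-KO lay below WT. All 9 listed markers of ESCs found in the deposited table were tested, and the listed *Zfp42* (*Rex1*) was not found there under that symbol. The 9 had a summed FPKM of 6899 in WT and between 4735 and 5679 in the subclones. Of these, 3 were called at an adjusted p under 0.05 (33.3%), beside 13.8% of all genes tested. *Sall4* was higher, and *Utf1* and *Dppa5* were lower. *Dppa5* lost its call with a correction for exon length and without subclone 3. The 12 endoderm markers summed to at most 3.89 FPKM in any library. The listed fibroblast marker *Col1a2* was not found either. The 9 fibroblast markers found, which feeder cells would carry, summed to 49.0 FPKM in WT and to 60.8, 138 and 78.5 FPKM in subclones 1, 2 and 3. Among them *Dcn*, *Lum* and *Thy1* were at 0 in all 4 libraries. Subclone 2 thus had the highest level of the list, and it was the highest of the subclones in 6 of 6 tested fibroblast markers. The 10 macrophage markers summed to 4.04 FPKM in WT and to 1.39, 7.18 and 1.08 FPKM in subclones 1, 2 and 3, with *Ptprc*, *Itgam*, *C1qa* and *C1qb* at 0 throughout. WT is a single library, so the p-values measure the spread between the 3 subclones only. With 1 library against 3, an exact permutation p cannot fall below 0.25, and each adjusted p therefore rests on the variance model fitted across all genes.

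Of the 47 genes, 31 passed the filter on low counts and were tested among 15028 genes. At an adjusted p under 0.05, 2 of the 31 were called, which is 6.45%, beside 13.8% of all genes tested. *Ctsf*, which encodes the cysteine protease cathepsin F, rose in *Thop1*-KO, where 8.62% of all genes were called higher. *Atp6v1c2*, which encodes the C2 form of the V1 subunit C, was lower, beside 5.17% of all genes called in that direction. The share of called members was below the background. Of the 16 genes that were not tested, 11 had 3 counts or fewer in every library, and 8 of these had 0 throughout. At an unadjusted p under 0.05 there were 12 members, beside 34% of all genes, so this share is near the background. Of these members 5 were higher, beside 19.1% of all genes, and 7 were lower, beside 14.9%. The called and unadjusted counts given for single groups and lists stand against the same shares. The log2 fold changes of the 31 ran from -2.44 to 2.64 with a median of 0.19, beside a median of 0.06 over all genes. WT lay below all 3 subclones in 12 members, which is close to the 38.1% seen over all genes. It lay above all 3 in 9 members, where all genes gave 37.6%. These shares also stand beside each later statement that WT lay outside the range of the subclones.

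**Figure D1:**
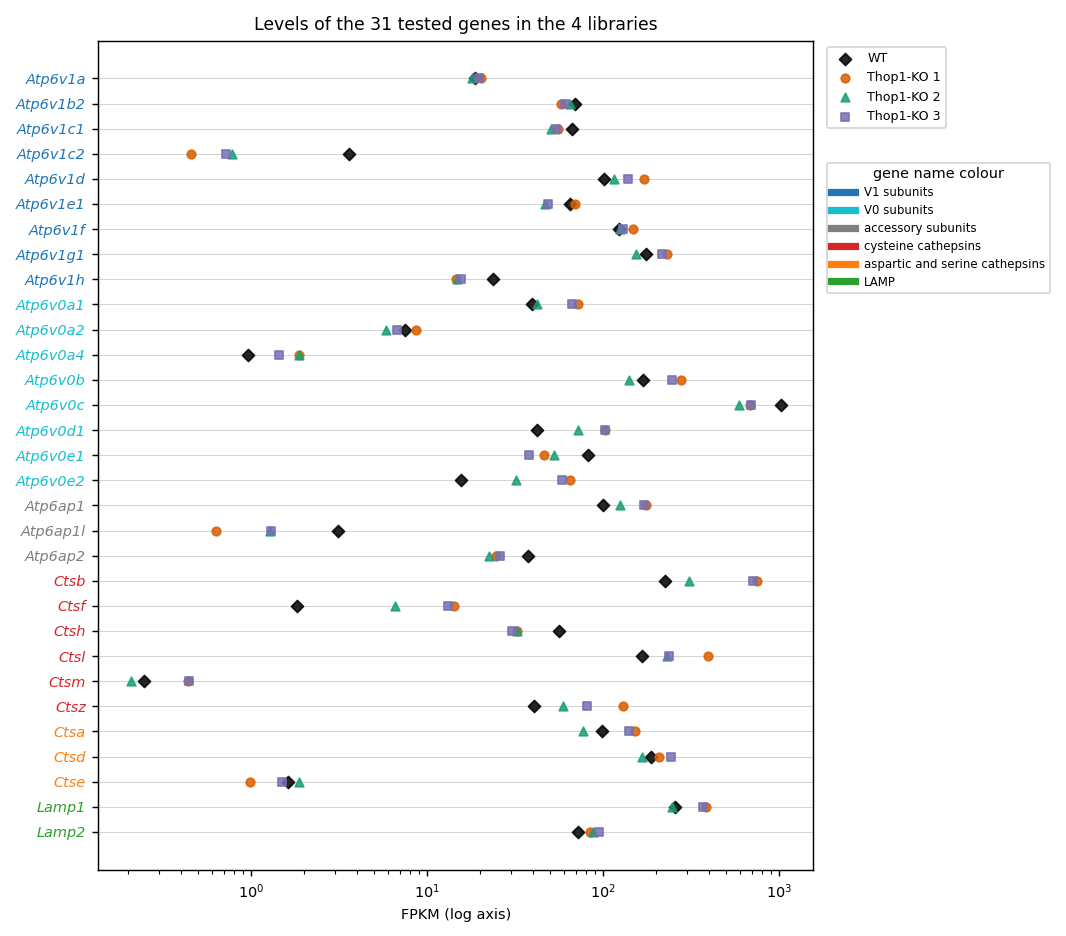
Deposited FPKM of the 31 tested genes on a log axis, 1 point for each library, with genes grouped by role through the colour of the name. Atp6v0c was highest among the V-ATPase genes in every library, and the WT points of Ctsf and Atp6v1c2 lie apart from the 3 subclone points, below them for Ctsf and above them for Atp6v1c2.

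DESeq2's Wald test called 6 members, beside 21.5% of all genes with an adjusted p. They were *Ctsf*, *Ctsb*, *Ctsz*, *Atp6v0d1* and *Atp6v0e2* as higher and *Atp6v1c2* as lower. The V0 subunits and the cysteine cathepsins gained calls and the other groups did not, while the share over all genes also rose, from 13.8%. Whether the gain is particular to these groups was not tested. The number of called members also turned on single libraries. Without subclone 2, 16 of the 31 members were called, 12 higher and 4 lower, beside 37.9% of all genes. Without subclone 3, 0 of 30 were called by edgeR's test, beside 3.1% of all genes, and 6 had an unadjusted p under 0.05, beside 21.7% of all genes. *Ctsf* then had an adjusted p of 0.0888 and *Atp6v1c2* of 0.122 in edgeR's test.

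**Figure D2:**
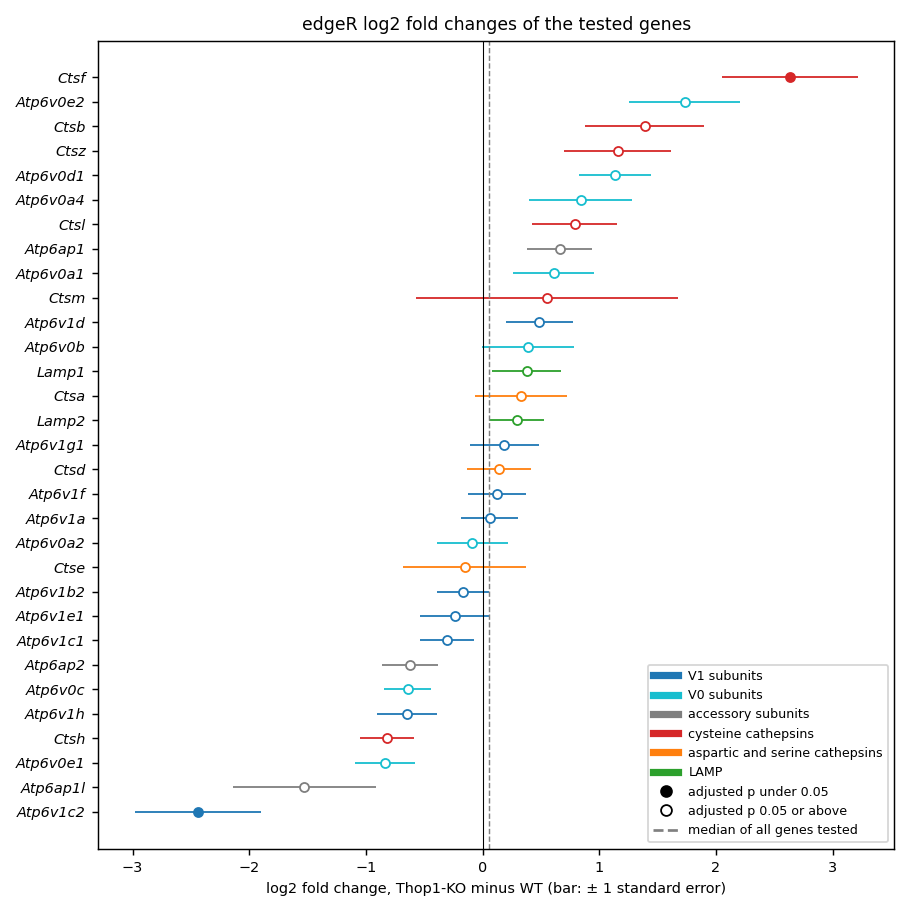
Log2 fold changes of Thop1-KO against WT for the 31 tested genes from edgeR, with bars of 1 standard error either side, coloured by role, and filled where the adjusted p was under 0.05. Filled points are Ctsf at 2.64 and Atp6v1c2 at -2.44, and the dashed line is the median of all genes at 0.06.

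Among the V1 subunits, 13 genes are in the table, 9 were tested and 1 was called, with a median log2 fold change of -0.17. The called gene was *Atp6v1c2* (ENSRNOG00000050553), found at positions 42585934 to 42630983 of chromosome 6, minus strand, by the coordinates of the count table, whose genome build is not given in the sources used here. Its exons hold 1429 bases, and no other annotated gene overlaps it. It had 77 counts in WT and 11, 20 and 19 counts in subclones 1, 2 and 3, or 5.18 CPM against 0.656, 1.13 and 1.06 CPM. All 3 subclones were below WT with no overlap, as in 37.6% of all genes tested. The mean of the subclones was 0.948 ± 0.256 CPM (SD, n = 3), and WT was 5.46-fold higher. The log2 fold change was -2.44 (SE 0.54, adjusted p = 0.0343). Subunit C clamps the stalk of the pump, and its C2 form is known from a few tissues such as kidney and lung, whereas C1 is found broadly.

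Per length, C2 was the minor form in every library. *Atp6v1c1*, the gene of the C1 form, stood at 66.4 FPKM in WT and at 55.8, 50.9 and 54.1 FPKM in the subclones, and *Atp6v1c2* at 3.58 and 0.456, 0.782 and 0.721 FPKM. C2 therefore made up 5.11% of the summed FPKM of both forms in WT and 0.811%, 1.51% and 1.32% in subclones 1, 2 and 3. The log2 fold change of *Atp6v1c1* itself was -0.31 (SE 0.23, adjusted p = 0.377), with the subclones all below WT. The upstream region of *Atp6v1c2* is shown because this gene is the only member called lower. It is the 250 bases before the RefSeq start on GRCr8, on the minus strand, chr6:45848748-45848997, written 5′ to 3′, and it holds no CACGTG, the core of the E-box that the TFEB family binds:
Atp6v1c2: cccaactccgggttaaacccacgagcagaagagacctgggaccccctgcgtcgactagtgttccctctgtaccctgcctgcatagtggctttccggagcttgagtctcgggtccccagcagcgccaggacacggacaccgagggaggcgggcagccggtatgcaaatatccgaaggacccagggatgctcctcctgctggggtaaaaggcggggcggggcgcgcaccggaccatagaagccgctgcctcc

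The other V1 subunits differed less. *Atp6v1g1*, which encodes a subunit of the peripheral stalks, had the highest mean FPKM of the V1 genes and stood at 176 FPKM in WT and 231, 153 and 216 FPKM in the subclones, so WT lay within their range. Its log2 fold change was 0.19 (SE 0.29, adjusted p = 0.681). *Atp6v1h*, whose product regulates the joining of the sectors, had 49.7 CPM in WT and 30.6, 31.1 and 33.4 CPM in the subclones. The subclones lay close together and below WT, with a log2 fold change of -0.65 (SE 0.26, adjusted p = 0.129). *Atp6v1d*, part of the central rotor with *Atp6v1f*, had 133 CPM in WT and 223, 151 and 184 CPM in the subclones, with a log2 fold change of 0.49 (SE 0.29, adjusted p = 0.272). All 3 values were above WT, while the rotor partner *Atp6v1f* had a log2 fold change of only 0.13. The ATP-binding subunits A and B were close to WT. *Atp6v1a*, the catalytic subunit, had 80.0 CPM in WT and 86.8, 77.5 and 86.2 CPM in the subclones, and *Atp6v1b2* had 190 CPM in WT and 159, 178 and 170 CPM. *Atp6v1e1*, of the peripheral stalks, had a log2 fold change of -0.24.

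Each V1 subunit with several genes was carried by 1 of them. *Atp6v1b1*, the B form of intercalated kidney cells, had 0 counts in WT and 9, 3 and 3 counts in the subclones, so that *Atp6v1b2* held between 99.8% and 100% of the B transcripts. *Atp6v1g2* had 0 counts in WT and 1, 1 and 0 in the subclones, and *Atp6v1e2* had 0 in WT and 0, 0 and 2. The whole annotated span of *Atp6v1g2*, 2210 bases, overlaps *RT1-CE4*, *RT1-CE7* and *RT1-CE1* on the same strand. Its reads may have been dropped in counting, which was not tested. *Atp6v1g3* was at 0 in all 4 libraries. At the total counts given above, 3 counts or fewer are taken as not detected, a limit that covers counting error only.

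Among the V0 subunits, 9 genes are in the table, 8 were tested and 0 were called by edgeR's test, while 4 had an unadjusted p under 0.05 and DESeq2 called 2. The median log2 fold change was 0.50. *Atp6v0c*, which encodes the proteolipid of the rotor ring, was the most abundant V-ATPase gene, at 1028 FPKM in WT and 688, 593 and 693 FPKM in the subclones. WT was above all 3. In CPM the values were 1199 in WT and 769 ± 67.8 (SD, n = 3) in the subclones, with a log2 fold change of -0.64 (SE 0.20, adjusted p = 0.0794). The related ring subunit of *Atp6v0b* had 173 CPM in WT and 281, 143 and 254 CPM in the subclones, so WT lay between subclone 2 and the others, and the log2 fold change was 0.39 (SE 0.39, adjusted p = 0.511).

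*Atp6v0d1*, whose product couples the ring to the central stalk, had 104 CPM in WT and 251, 177 and 257 CPM in subclones 1, 2 and 3. The subclone mean was 228 ± 44.7 CPM (SD, n = 3), or 2.20-fold that of WT. The log2 fold change was 1.14 (SE 0.31), and the adjusted p of 0.0546 just missed the threshold in edgeR's test, whereas DESeq2 gave 0.00929. An annotated antisense gene overlaps *Atp6v0d1* by 1859 bases and had between 0 and 7 counts. How many reads of *Atp6v0d1* this overlap affects was not tested, since it depends on how reads over 2 genes were counted. Its partner form *Atp6v0d2*, known from osteoclasts and macrophages, was at 0 in every library.

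The subunit e has a pair of genes, and their levels in the subclones stood on opposite sides of WT. *Atp6v0e2* had 13.7 CPM in WT and 56.2, 28.1 and 51.9 CPM in the subclones, a mean of 45.4 ± 15.1 CPM (SD, n = 3) and a ratio of 3.32. Its log2 fold change was 1.73 (SE 0.47, adjusted p = 0.0562 in edgeR and 0.00139 in DESeq2). *Atp6v0e1* had 193 CPM in WT and 108, 124 and 91.1 CPM in the subclones, with a log2 fold change of -0.84 (SE 0.25, adjusted p = 0.0726). For both genes WT lay outside the range of the subclones. It was below for *Atp6v0e2*, as in 38.1% of all genes tested, and above for *Atp6v0e1*, as in 37.6%. Per length, *Atp6v0e2* was 16.0% of the summed FPKM of the pair in WT and 58.3%, 37.9% and 60.6% in subclones 1, 2 and 3. The pair was therefore led by *Atp6v0e1* in WT and in subclone 2, and by *Atp6v0e2* in subclones 1 and 3. The shares were not tested, since neither gene was called and WT has 1 library.

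**Figure D3:**
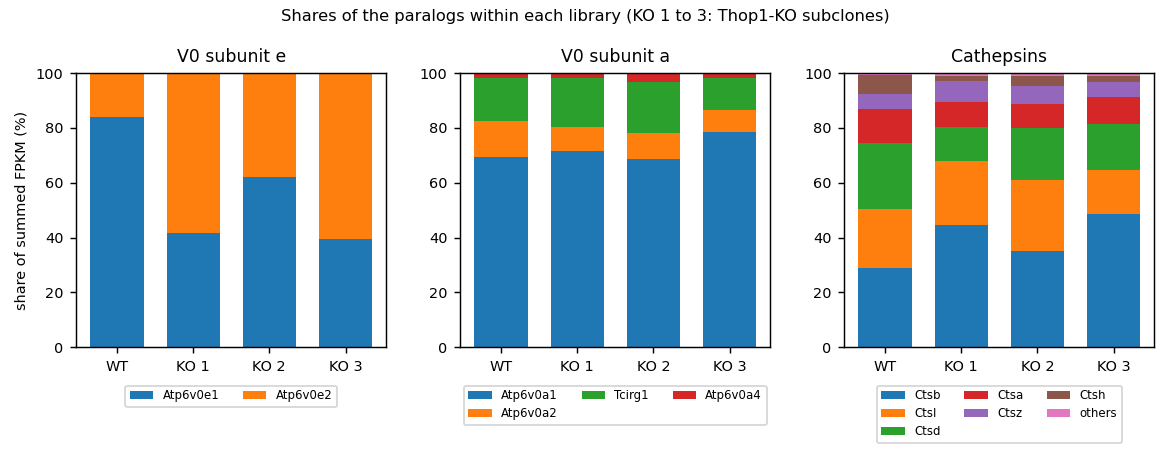
Shares of summed FPKM, in percent, in each of the 4 libraries for the genes of V0 subunit e, for the genes of V0 subunit a and for the cathepsins. Atp6v0e2 takes 16.0% of its pair in WT and between 37.9% and 60.6% in the subclones, whereas Atp6v0a1 keeps between 68.5% and 78.4% of subunit a in all 4 libraries.

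Subunit a anchors the pump to particular membranes and has 4 genes, of which *Tcirg1* (the a3 form) carries another name and is listed here as a partner. *Atp6v0a1* was the main form, at 39.4 FPKM in WT and 71.9, 41.9 and 66.3 FPKM in the subclones, and it made up 69.3% of the subunit in WT and 71.7%, 68.5% and 78.4% in the subclones. Its log2 fold change was 0.61 (SE 0.35, adjusted p = 0.255). *Atp6v0a2*, a form of the Golgi and endosomes, was 13.3% of the subunit in WT and between 7.99% and 9.61% in the subclones, while its own log2 fold change was -0.09. *Tcirg1* held 15.7% in WT and between 11.9% and 18.8% in the subclones. *Atp6v0a4*, a kidney form, stayed at 0.960 FPKM in WT and between 1.44 and 1.87 FPKM in the subclones (log2 fold change 0.84, SE 0.44, adjusted p = 0.223). It shares 5861 bases with *Tmem213* on the other strand, and its few reads could belong to either gene if strand was not used.

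The accessory genes comprise 4 in the table, of which 3 were tested and 0 called by edgeR or DESeq2, with 2 below an unadjusted p of 0.05. *Atp6ap1*, whose product Ac45 guides assembly of the pump, had the highest FPKM of the group and 222 CPM in WT against 387, 280 and 385 CPM in the subclones, all above WT. The log2 fold change was 0.66 (SE 0.28, adjusted p = 0.148). *Atp6ap2*, which encodes the prorenin receptor, was below WT in all 3 subclones, with 83.2 CPM in WT and 54.4, 49.7 and 58.0 CPM (log2 fold change -0.62, SE 0.24, adjusted p = 0.127). Both genes lie on chromosome X, and neither was called. *Atp6ap1l*, a little studied relative of *Atp6ap1*, was low throughout, at 3.57 CPM in WT and 0.716, 1.47 and 1.503 CPM in the subclones (log2 fold change -1.53, SE 0.62, adjusted p = 0.135). *Atp6v1fnb* had 0 counts in WT and 5, 1 and 0 in the subclones.

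Among the cysteine cathepsins, 13 genes are in the table, 6 were tested and 1 was called. Their median log2 fold change was 0.97 with 5 of 6 above 0, beside 7802 of 15028 over all genes. *Ctsf* (ENSRNOG00000019708) is at positions 220114228 to 220119976 of chromosome 1, plus strand, by the same coordinates. Its exons hold 1863 bases, and it too is free of overlapping genes. It had 51 counts in WT and 446, 218 and 453 counts in subclones 1, 2 and 3, or 3.43 CPM against 26.6, 12.3 and 25.2 CPM. The lowest subclone was well above WT. The subclone mean was 21.4 ± 7.87 CPM (SD, n = 3), or 6.23-fold that of WT, and the log2 fold change was 2.64 (SE 0.58, adjusted p = 0.0338). Cathepsin F acts in lysosomal protein turnover, and in antigen-presenting cells it can trim the invariant chain. Even so it was a minor cathepsin, at 1.82 FPKM in WT and 14.2, 6.54 and 13.2 FPKM in the subclones.

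The upstream region of *Ctsf* is shown because this gene is the only member called higher. It spans the 250 bases before the RefSeq start on GRCr8, on the plus strand, chr1:211581919-211582168, 5′ to 3′. Capitals mark its single CACGTG, which begins 149 bases before the start:
Ctsf: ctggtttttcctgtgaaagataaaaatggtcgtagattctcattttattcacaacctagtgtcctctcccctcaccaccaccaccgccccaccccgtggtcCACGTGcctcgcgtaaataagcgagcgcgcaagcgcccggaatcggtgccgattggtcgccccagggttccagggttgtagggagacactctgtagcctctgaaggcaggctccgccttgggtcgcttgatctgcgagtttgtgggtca

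*Ctsb*, the gene of cathepsin B, was the most abundant cathepsin of every library and had 444 CPM in WT and 1466, 608 and 1414 CPM in subclones 1, 2 and 3. All 3 were above WT, but subclone 2 was far below the other pair. The mean was 1163 ± 481 CPM (SD, n = 3), or 2.62-fold that of WT, and the log2 fold change was 1.39 (SE 0.51). The adjusted p was 0.11 in edgeR and 0.0131 in DESeq2, and it was 3.91e-05 in edgeR without subclone 2. *Ctsz*, the gene of the carboxypeptidase cathepsin Z, followed the same order, with 55.5 CPM in WT and 178, 80.8 and 113 CPM in the subclones. Its log2 fold change was 1.16 (SE 0.46, adjusted p = 0.131 in edgeR and 0.0371 in DESeq2). For both genes the call thus depends on the tool and on subclone 2.

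*Ctsl* and *Ctsh* are given because they are the other abundant cysteine cathepsins, and they were chosen after their values were seen. *Ctsl*, whose product is a broad endopeptidase, had 277 CPM in WT and 653, 383 and 398 CPM in the subclones, all above WT (log2 fold change 0.79, SE 0.36, adjusted p = 0.175). *Ctsh*, the gene of an aminopeptidase, was the only tested cysteine cathepsin whose fold change was negative. It had 99.9 CPM in WT and 57.6, 57.6 and 54.9 CPM in the subclones, the tightest set of any member with a coefficient of variation of 2.71%. Its log2 fold change was -0.82 (SE 0.23), and its adjusted p of 0.0611 missed the threshold in edgeR's test, as did that of 0.0590 in DESeq2.

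The remaining cysteine cathepsins were at or near 0. *Ctsm*, of the cathepsin cluster that rodents express in placenta, passed the filter with 0.337 CPM in WT and between 0.283 and 0.612 CPM in the subclones (log2 fold change 0.55, SE 1.12, adjusted p = 0.754). Its cluster neighbours *Ctsj*, *Ctsq* and *Ctsr* were at 0 in all libraries, as were *Cts7* and *Cts8*, and reads of such close copies may be split or dropped in counting. The 10 trophoblast markers summed to 92.2 FPKM in WT and 247, 117 and 164 FPKM in the subclones, with 0 of 3 tested called by edgeR or DESeq2 and 0 at an unadjusted p under 0.05, while *Gata3*, *Krt7* and *Prl3d1* were at 0 throughout, and their part in the values of *Ctsm* was not tested. *Tinagl1*, a cathepsin-like gene without protease activity, was not called (adjusted p = 0.527). *Ctsk*, the collagenase of osteoclasts, had 6 counts in WT and 2, 1 and 4 in the subclones. *Ctsc* had 2 counts in WT and 1, 6 and 1 in the subclones, and *Ctsw*, of cytotoxic lymphocytes, had 2 in WT and 0, 1 and 1. *Ctss*, which macrophages and dendritic cells express strongly, was at 0 in all 4 libraries.

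The aspartic and serine cathepsins comprise 4 genes in the table, of which 3 were tested and 0 called by edgeR or DESeq2, with 0 at an unadjusted p under 0.05. *Ctsd*, the gene of the aspartic protease cathepsin D, had the highest FPKM of the group and 385 CPM in WT against 425, 343 and 509 CPM in the subclones. WT lay within their range, and the log2 fold change was 0.14 (SE 0.27, adjusted p = 0.737). *Ctsa*, which encodes a serine carboxypeptidase that also protects beta-galactosidase and neuraminidase, had 226 CPM in WT and 348, 177 and 328 CPM in the subclones. Again WT lay between subclone 2 and the other pair, with a log2 fold change of 0.33 (SE 0.40, adjusted p = 0.582). *Ctsa* shares 157 bases with *Pltp* and 63 with *Neurl2* on the other strand. *Ctse*, an aspartic protease of endosomes, was low, with 3.63 CPM in WT and 2.21, 4.19 and 3.40 CPM in the subclones (log2 fold change -0.15). *Ctsg*, of neutrophil granules, was at 0 throughout.

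Of the 4 Lamp genes, 2 were tested and 0 called by edgeR or DESeq2, with 0 at an unadjusted p under 0.05. *Lamp1* was the most abundant member after *Atp6v0c* in WT, at 257 FPKM, and stood at 385, 246 and 371 FPKM in the subclones. In CPM these were 1048 in WT and 1558, 999 and 1529 in the subclones, so subclone 2 lay just below WT and the other pair above it. The log2 fold change was 0.38 (SE 0.30, adjusted p = 0.400). *Lamp2*, needed for the fusion of autophagosomes with lysosomes, had 128 CPM in WT and 148, 154 and 169 CPM in the subclones, which were all above WT (log2 fold change 0.29, SE 0.24, adjusted p = 0.406). *Lamp3* had 4 counts in WT and 2, 6 and 1 in the subclones, and *Lamp5*, of neurons and dendritic cells, had 0 in all libraries.

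Taking each family as a sum of FPKM, the cathepsins stood higher in the subclones than in WT and the pump did not. The cathepsin sum was 779 FPKM in WT and 1684, 884 and 1459 FPKM in subclones 1, 2 and 3. The mean was 1342 ± 412 (SD, n = 3) and the ratio 1.72. *Ctsb*, which edgeR did not call, held 225 FPKM of it in WT and 749, 309 and 710 FPKM in the subclones. WT lay below all 3 subclones in 4 of the 9 tested cathepsins, above all 3 in 1 and within their range in 4. The V-ATPase sum was 2171 FPKM in WT and 2230, 1679 and 2095 FPKM in the subclones, a mean of 2001 ± 287 (SD, n = 3), so WT lay within their range. By sector, V1 summed to 646 FPKM in WT and to between 590 and 768 FPKM in the subclones. V0 summed to 1385 FPKM in WT and to between 940 and 1261 FPKM in the subclones, all below WT. The V0 sum rests largely on 1 gene, *Atp6v0c*, with 1028 FPKM in WT and 688, 593 and 693 FPKM in the subclones. Over the 8 tested V0 genes the median log2 fold change was 0.50, with 5 above 0 and 3 below. The sums of the pump therefore do not describe its other genes. These sums were not tested. In bulk RNA, more cells with a transcript and more transcript per cell cannot be told apart.

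Within the cathepsin sum, *Ctsb* took 28.9% in WT and 44.5%, 35.0% and 48.6% in the subclones. *Ctsd* took 24.1% in WT and 12.4%, 18.9% and 16.8% in the subclones, and *Ctsh* took 7.21% in WT and 1.94%, 3.67% and 2.09%. *Ctsl*, at 21.3% in WT, lay between 16.2% and 26.0% in the subclones. By FPKM the order in the single WT library, which has no measured spread, was *Ctsb*, *Ctsd*, *Ctsl*, *Ctsa*, *Ctsh* and *Ctsz*. In all 3 subclones *Ctsz* stood above *Ctsh*, and in subclones 1 and 2 *Ctsl* stood above *Ctsd*. *Ctsf* was under 1% of the sum, at 0.233% in WT and 0.842%, 0.739% and 0.904% in the subclones.

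The subclones were not alike in these genes. Subclone 2 was the lowest of the 3 in 22 of the 31 tested members, beside 38.4% of all genes tested, while subclone 1 was lowest in 6 and subclone 3 in 3. The 22 include *Ctsb*, *Ctsf*, *Ctsl*, *Ctsz*, *Ctsa*, *Ctsd* and *Lamp1*, and the difference between subclones has no replicate, since each is 1 library. The coefficient of variation over the subclones had a median of 19.6% in the members and 23.4% over all genes tested. It was highest among the abundant members for *Ctsb* at 41.4%, with the highest subclone 2.41-fold above the lowest, and for *Ctsz* at 39.8%. It was 4.64% for *Atp6v1c1*, 4.71% for *Atp6v1h*, 5.73% for *Atp6v1b2* and 6.23% for *Atp6v1a*, all of the V1 sector. Counts on members were 0.560% of the library in WT and 0.791%, 0.575% and 0.776% in subclones 1, 2 and 3. The fibroblast markers ran against this order, with subclone 2 highest, and their part in the spread was not tested.

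**Figure D4:**
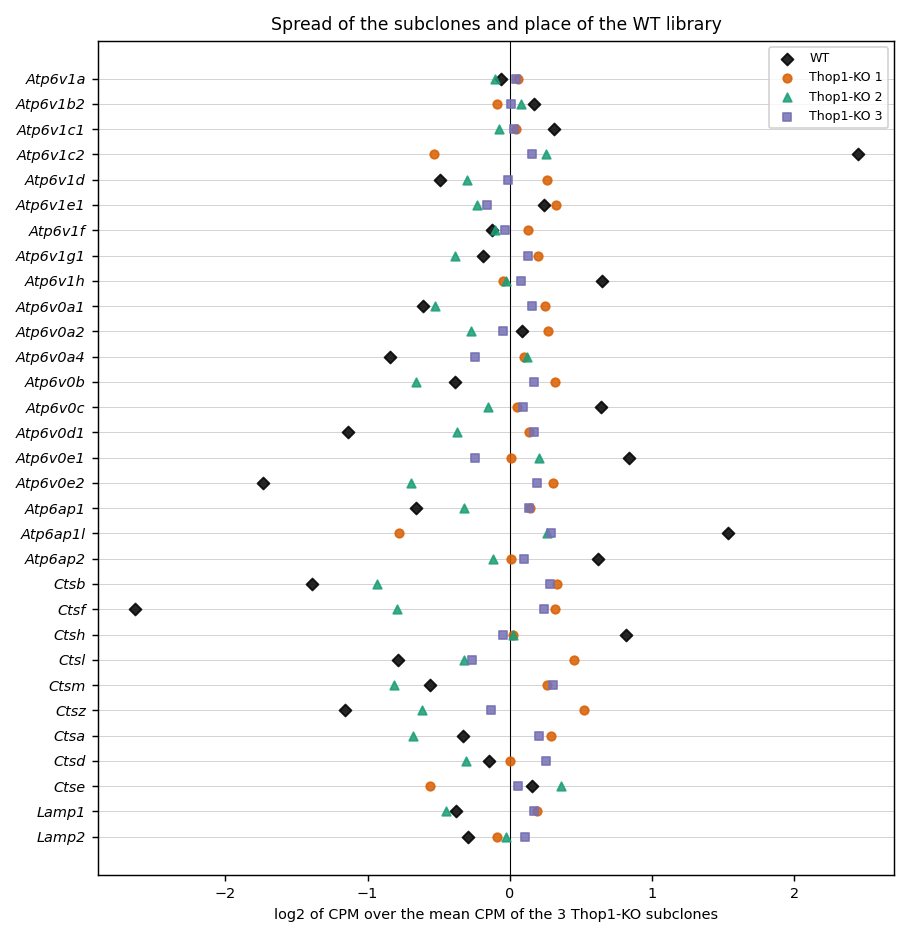
Log2 of each library's CPM over the mean CPM of the 3 subclones for the 31 tested genes, with WT as black diamonds and the subclones in colour. Subclone 2 is the leftmost subclone in 22 of the 31 genes. The subclone points of the 4 V1 genes with the smallest spread lie within a narrow band around 0. The WT points of Atp6v1h, Atp6v1c1 and Atp6v1b2, among these genes, lie to the right of all 3 subclones.

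Exon length moved with the fold changes of all genes. The median log2 fold change was -0.33 in the shortest class of genes, up to 1516 bases of exon sequence, 0.09 in the middle class and 0.31 in the longest, from 2857 bases. The shortest class held 11 tested members, among them *Atp6v1c2* and *Atp6v0e2*, the middle class held 15, among them *Ctsf* and *Ctsb*, and the longest held 5. After a correction of each library for length, *Ctsf* and *Atp6v1c2* were still called, and *Atp6v0e2* was called as higher as well. Among the other lysosomal genes taken as lists, 13 in place of 15 were then called, with *Tm9sf4* and *Igf2r* no longer among them.

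E-boxes were looked for in the promoters that RefSeq gives on GRCr8, from 250 bases before to 50 bases after each start, which were found for 38 of the 47 genes. Missing from that table were *Ctsb*, *Ctsq*, *Ctsw*, *Atp6v0d2*, *Atp6v0e2*, *Atp6v1b2*, *Atp6v1c1*, *Atp6v1fnb* and *Atp6v1h*. The searched words were CACGTG and the longer TCACGTGA, which contains it and is the core of the CLEAR element of lysosomal genes. Both read the same on either strand. CACGTG was present in 5 of the 38 (13.2%), beside 6.42% of 33469 promoters in the table. Among tested genes it was present in 5 of 26 members (19.2%), beside 9.68% of 9590 promoters. TCACGTGA was present in 4 of the 38 (10.5%), beside 0.777% of all promoters. Among tested genes it was present in 4 of 26 members (15.4%), beside 1.75%. The 4 were *Lamp1*, *Ctsd*, *Atp6v0d1* and *Atp6v0e1*, and the fifth gene with CACGTG was *Ctsf*.

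These stretches are shown because they carry the longer word in capitals. Each has 30 bases, is written 5′ to 3′ on the gene's strand, which is minus for all of them, and comes from GRCr8. That of *Lamp1* is chr16:83075111-83075140, with the word 66 bases before the start, and it is the first of a pair. That of *Ctsd* is chr1:206968814-206968843, with the word 11 bases before the start. That of *Atp6v0d1* is chr19:50357283-50357312, with the word 53 bases before the start. That of *Atp6v0e1* is chr10:17007115-17007144, where the word begins at base 24 counted from 1 at the start:
Lamp1: agaccctcggcTCACGTGAccggcgggcgc
Ctsd: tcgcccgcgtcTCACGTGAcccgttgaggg
Atp6v0d1: ccccattgtggTCACGTGAgatgcagtgcg
Atp6v0e1: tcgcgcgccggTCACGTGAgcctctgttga

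The 4 genes with the longer word did not share a direction. *Atp6v0d1* had a log2 fold change of 1.14, *Lamp1* of 0.38 and *Ctsd* of 0.14, while that of *Atp6v0e1* was -0.84, and none of them was called by edgeR's test. *Lamp1* held CACGTG 5 times, more than any other member, 2 of them within TCACGTGA. Its whole upstream region, chr16:83075064-83075313 on the minus strand, is shown to let the spacing be seen, with every CACGTG and TCACGTGA in capitals:
Lamp1 upstream: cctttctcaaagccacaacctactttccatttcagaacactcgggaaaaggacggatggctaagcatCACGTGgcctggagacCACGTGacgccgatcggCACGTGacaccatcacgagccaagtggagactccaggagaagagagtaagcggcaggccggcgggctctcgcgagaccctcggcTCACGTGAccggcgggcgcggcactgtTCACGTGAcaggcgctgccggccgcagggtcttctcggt

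Transcripts of *Tfe3*, *Tfeb* and *Mitf* were measured in the same libraries. Their proteins, and binding to these promoters, were not measured. The list of MiT/TFE factors and their regulators had 14 genes tested and 4 called (28.6%), 2 higher and 2 lower, beside 13.8% of all genes tested. *Tfe3* had 14.4 CPM in WT and 78.0, 59.3 and 70.2 CPM in the subclones, with a log2 fold change of 2.26 (SE 0.32, adjusted p = 0.0112). *Tfeb* had 937 CPM in WT and 423, 523 and 496 CPM in the subclones, with a log2 fold change of -0.96 (adjusted p = 0.0335). *Mitf* had 65.5 CPM in WT and 11.6, 24.9 and 19.4 CPM in the subclones, with a log2 fold change of -1.81 (adjusted p = 0.0338). *Tfe3* therefore rose while *Tfeb* and *Mitf* fell, with no overlap between WT and the subclones in any of these 3 genes. Over all genes tested, WT lay below all 3 subclones in 38.1% and above all 3 in 37.6%. *Tfe3* was called in all 12 alternatives. Without subclone 3, *Tfeb* (adjusted p = 0.138) and *Mitf* (adjusted p = 0.0900) lost their calls, and limma did not call *Mitf* with either pseudocount (adjusted p = 0.0598 and 0.0691). The fourth, *Fnip2*, which with folliculin acts on the nutrient sensing of the lysosome, had a log2 fold change of 3.29 (adjusted p = 0.0288).

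Other genes of the lysosome were taken as lists. Of the 35 tested hydrolases and activators outside the cathepsins, 3 were called (8.57%), all higher, beside 13.8% of all genes called in either direction. The median log2 fold change was 0.83 with 33 of 35 above 0, beside 7802 of 15028 over all genes. WT lay below all 3 subclones in 22 of the 35, beside 38.1% of all genes. Among them was *Gusb*, the gene of beta-glucuronidase, with 1.55 CPM in WT and 11.2, 8.09 and 9.96 CPM in the subclones (log2 fold change 2.65, SE 0.47, adjusted p = 0.0197). The summed FPKM of the list was 1111 in WT and 2513, 1363 and 2209 in the subclones, so subclone 2 was again the lowest of the 3, as for the cathepsin sum.

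Of 19 tested lysosomal membrane proteins, 5 were called (26.3%), beside 13.8% of all genes tested. *Clcn7*, the chloride and proton exchanger, had a log2 fold change of 2.98, *Npc1*, the cholesterol exporter, of 2.79, *Scarb2*, a receptor that carries a hydrolase to the lysosome, of 2.30 and *Slc36a1*, an amino acid and proton symporter, of 2.48. *Tmem192* fell, with a log2 fold change of -1.09, and the adjusted p of the 5 lay between 0.0108 and 0.0456. Of 21 tested genes that sort hydrolases to the lysosome, 2 were called higher (9.52%), beside 8.62% of all genes called higher. They were *Igf2r*, the mannose 6-phosphate receptor, with 69.4 CPM in WT and 880, 268 and 705 CPM in the subclones (log2 fold change 3.15, adjusted p = 0.0348), and *Vps41*, of the HOPS tethering complex, with a log2 fold change of 1.96 (adjusted p = 0.0302). Of 12 tested assembly factors and partners of the V-ATPase, 1 was called, *Tm9sf4* (log2 fold change 1.34, adjusted p = 0.0409), which lost its call with the correction for length (adjusted p = 0.0582) and without subclone 3 (adjusted p = 0.183). Without subclone 3 the calls of *Gusb*, *Scarb2*, *Slc36a1*, *Tmem192*, *Igf2r* and *Vps41* were lost as well. Limma on log2(FPKM + 1) did not call *Fnip2*, *Slc36a1*, *Tmem192* and *Igf2r*, limma on log2(FPKM + 0.1) did not call *Tmem192*, and *Tmem192* was not called without subclone 1 either.

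Of 4 tested cathepsin inhibitors, which include the cystatins, 0 were called by edgeR or DESeq2, and 1 had an unadjusted p under 0.05 with a lower level in the subclones. The list had a median log2 fold change of -0.53, against 0.55 for the 9 tested cathepsins. The median exon length was 810 bases for these inhibitors and 1863 bases for the cathepsins. The part of exon length in this difference was not tested. Over these 6 lists of lysosomal genes together, 15 of 105 tested genes were called (14.3%), 12 higher and 3 lower, with a median log2 fold change of 0.45. That share is near the 13.8% of all genes and the members' 6.45% is below it, and no test of the difference between the lists was made. Without subclone 2 the counts were 50 of the listed genes and 16 of the members, and without subclone 3 they were 5 and 0.

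**Figure D5:**
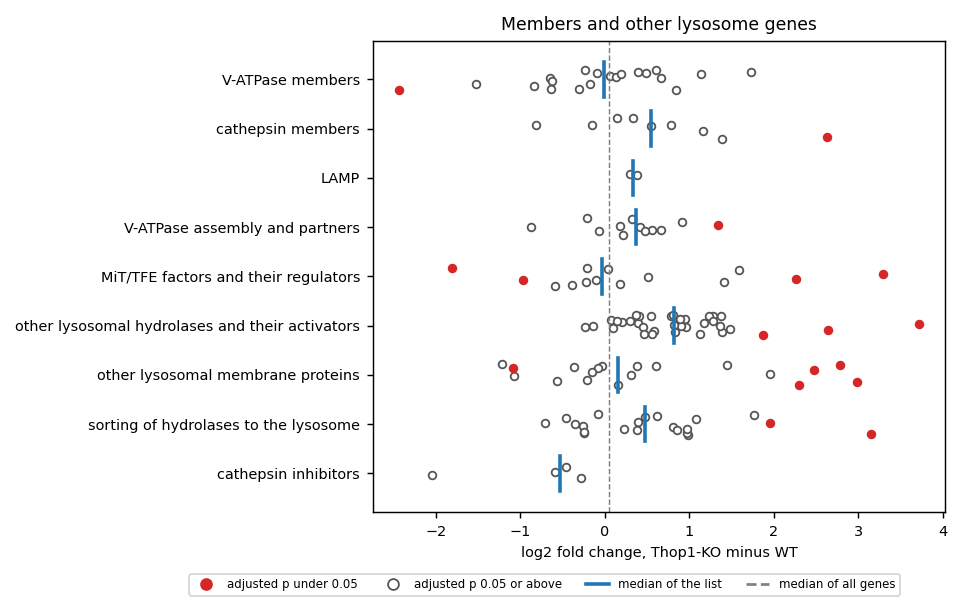
Log2 fold changes of the tested members and of 6 lists of other lysosomal genes, 1 point per gene, filled where edgeR's adjusted p was under 0.05, with the median of each list as a bar and that of all genes as a dashed line. The other hydrolases lie mostly right of the line with a median of 0.83, and the V-ATPase members spread evenly around a median of -0.01.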

How the data were processed

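RNA was extracted with Trizol, selected by poly-T beads and made into libraries with the NEBNext Ultra kit, and 1 WT and 3 Thop1-KO libraries were compared, grouped by the genotype in the labels. The authors deposited raw counts per gene and FPKM values. They trimmed reads with the FASTX toolkit, and the submitters' processing notes also name HISAT2 2.0.5 and featureCounts 1.5.0-p3, without a role. The genome build, and whether strand was used in counting, are not given in the sources used here. Dividing the deposited counts by exon length and by DESeq2's size factor of each library gave the deposited FPKM up to a constant.

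Counts were analysed in R 4.3.3 with edgeR 4.0.16 (filterByExpr with a minimum count of 10, TMM scaling, quasi-likelihood test, Benjamini-Hochberg adjustment across all 15028 genes tested), and genes with an adjusted p under 0.05 were called. The dispersion comes from the 3 subclones. Standard errors are the log2 fold change over the square root of F. The library totals limit low genes only, and 3 counts or fewer were treated as not detected. No pair of libraries was a repeat of the other, since chi-square per degree of freedom was 24.3 or more in every pair. Simulated counts were used to check the code. The alternatives were other scalings, DESeq2 1.42.0, other filters, a correction of each library for exon length by loess (span 0.3), limma 3.58.1 on log2 FPKM with a pseudocount of 1 or of 0.1, and the omission of each subclone in turn.

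Genes with their own sentences are those called, then in each role group the one with the highest mean FPKM and the 2 uncalled ones with the largest absolute log2 fold change, and all genes at the floor. From the other lists up to 4 called genes each were named by smallest p, and some of these genes are not reported here. All further members given with values, and the fifth called membrane protein, were added after their values were seen. The members, roles and lists (6 of lysosomal genes, 1 of other cathepsin relatives, and markers of ESCs, fibroblasts, endoderm, macrophages and trophoblast) were chosen with earlier results of these data known. Promoters are those of RefSeq on GRCr8, matched by symbol or gene identifier, and share no coordinates with the deposited annotation. No protein sequences were used here. Tables and plots were made with Python 3.11.15, pandas 2.3.3 and matplotlib 3.10.9.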

Additional observations from a re-analysis of the deposited data

How the results depend on the processing

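WT has 1 library, so its own spread is unmeasured. *Ctsf* and *Atp6v1c2* were each called in 11 of 12 alternatives, with log2 fold changes from 2.06 to 2.91 and from -2.58 to -1.48. The exception for both was leaving out subclone 3, with adjusted p-values of 0.0888 and 0.122. *Thop1* was called in all 12.

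The number of all genes called was 2072, and lay between 457 and 5572 when 1 subclone was left out, lowest without subclone 3 and highest without subclone 2. Called V-ATPase members went from 1 to 2 with upper quartile factors, with at least 10 counts in every library and with the correction for length, and to 3 with library size only, with DESeq2 and with no filter. They lay between 0 and 9 when 1 subclone was left out. Called cathepsins went from 1 to 2 with upper quartile factors and to 3 with DESeq2, and lay between 0 and 6 when 1 subclone was left out. Called *Lamp* genes lay between 0 and 1 in that way. The other lysosomal lists went from 15 called genes to 26 with DESeq2, and to between 5 and 50 when 1 subclone was left out. Over all genes, the calls were 2170 of 15028 with upper quartile factors and 2042 of 15028 with library size only. They were 1777 of 15028 with the correction for length and 1770 of 11852 with at least 10 counts in every library. With no filter they were 2198 of 19903, and with DESeq2 3006 of the 13973 with an adjusted p. Whether the members shifted more than all genes, and the cause of these shifts, were not tested.

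The sign of the log2 fold change turned for 4 genes near 0, none of them called in either setting. *Atp6v1a* went to -0.040 with upper quartile factors and to -0.18 with the correction for length. When 1 subclone was left out, *Atp6v0a2* lay between -0.235 and 0.032, turning without subclone 2, *Ctsd* between -0.0042 and 0.279, turning without subclone 3, and *Ctse* between -0.372 and 0.071, turning without subclone 1. Of the other values of single members, 336 kept their direction and side of the threshold, 26 gained a call and 2 lost it. The summed FPKM of the subclones lay between 1172 and 1571 for the cathepsins and between 1887 and 2162 for the V-ATPase when 1 subclone was left out, against 779 and 2171 in WT. No paired analysis was possible because WT has 1 library and its label carries no replicate number.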
